A study of Mus musculus with 12 samples.

Results

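The genes described here are 10 genes that mark T cells and natural killer (NK) cells, namely Cd3d, Cd3e, Cd3g, Cd4, Cd8a, Cd8b1, Nkg7, Gzma, Klrb1c and Lck. They were chosen by name, and all 10 of them were found among the 21936 mouse genes of the deposited table. Each of the 10 matched 1 entry of the table, and every one passed edgeR's filter on low counts in all 3 comparisons.

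Liver RNA of male C57BL/6 mice, of the C57BL/6 J substrain by the study's methods, was sequenced in 3 groups of 3 libraries, from a series of 12 samples. All 3 groups had carried the same injury, carbon tetrachloride (CCl4) at 1 mL/kg into the peritoneum 2 times a week for 8 weeks, started after mice 6 weeks of age had adapted for 1 week. LFG, the liver fibrosis group, was killed when CCl4 ended. REG, the regression group, was then injected with 200 µl of PBS into the tail vein 2 times a week for 4 weeks, and hADMSCs-Exo mice were given the same injections with 250 µg of exosomes, measured as protein, in the PBS. The exosomes were vesicles shed by cultured human adipose mesenchymal stem cells, and the 3 samples given the cells themselves were not analysed here. The exosome libraries are those whose columns are headed MSC_E, a heading that does not spell out the treatment, so every hADMSCs-Exo value rests on that reading. REG and hADMSCs-Exo livers were therefore taken 4 weeks later than LFG livers, so time, the end of CCl4 and the injections cannot be told apart where either group is compared with LFG. No library of mice that never received CCl4 was analysed here.

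T cells carry a receptor for peptide antigen whose signal runs through the CD3 chains to the kinase Lck, and the co-receptors CD4 and CD8 divide them into helper and cytotoxic cells. NK cells lack that receptor and kill by way of activating and inhibitory receptors, and like cytotoxic T cells they release granules that hold granzymes. The liver is known for a large resident population of NK cells, NKT cells and CD8 T cells in its sinusoids, which gain access to hepatocytes and stellate cells. A liver sample is mostly hepatocyte RNA, so these genes are scarce in it. In such bulk tissue, fewer cells of a type and less RNA per cell cannot be told apart.

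The members lie on chromosomes 4, 6, 7, 9 and 13 of GRCm38, with gene bounds in the table equal to those of the GENCODE M21 annotation. Cd3g (chr9:44969572-44980431, minus strand) and Cd3d (chr9:44981786-44987339, plus strand) point away from each other with outer starts 1355 bases apart, and Cd3e (chr9:44998740-45009627, minus strand) follows 11401 bases beyond the end of Cd3d. Cd8b1 (chr6:71322788-71337494) and Cd8a (chr6:71373427-71379173) lie in tandem on the plus strand, 35933 bases apart. Cd4 (chr6:124864692-124888221) and Klrb1c (chr6:128778485-128789215) share that chromosome on the minus strand. Nkg7 (chr7:43437073-43438249, plus strand), Gzma (chr13:113093825-113100981, minus strand) and Lck (chr4:129548344-129573641, minus strand) stand apart from other members. An exon of Cd3e overlaps the antisense gene Gm48719, Klrb1c overlaps exons of Gm44511 on its own strand, and Lck holds the microRNA gene Mir8119. The use of strand in counting is not given in the sources used here, so reads of Cd3e and of its antisense partner cannot be told apart.

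RefSeq promoter sequences (GRCm38.p6, from 250 bases before to 50 bases after each start) were found for 8 of the 10 members, as 9 promoters, since Lck has 2. Cd4 and Cd8b1 were not matched. Both strands were searched for CAGGAAGT, a binding sequence of ETS factors, for TGTGGT, a core sequence of RUNX factors, and for TATAAA. The ETS sequence was present in 3 of 9 member promoters, against 3.33% of all 32851 promoters in the table. The RUNX sequence was present in 4 of 9, against 16.8% of all, and TATAAA in 0 of 9, against 13.6% of all. These matches are descriptions of letters and not of bound sites. The 150 bases before the start are shown for the 6 promoters with a match, because they show which members share letters and which do not; each runs 5′ to 3′ on the gene's own strand, and capitals mark the ETS or RUNX match on either strand.
Cd3e, chr9:45009612-45009761, minus strand: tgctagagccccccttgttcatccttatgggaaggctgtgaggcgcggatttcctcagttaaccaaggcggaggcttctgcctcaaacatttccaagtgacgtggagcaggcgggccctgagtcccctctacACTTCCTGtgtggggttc
Lck, upstream promoter, chr4:129573642-129573791, minus strand: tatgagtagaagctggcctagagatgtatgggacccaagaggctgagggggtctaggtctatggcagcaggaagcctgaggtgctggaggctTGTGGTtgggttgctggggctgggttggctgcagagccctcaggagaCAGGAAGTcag
Lck, downstream promoter, chr4:129558373-129558522, minus strand: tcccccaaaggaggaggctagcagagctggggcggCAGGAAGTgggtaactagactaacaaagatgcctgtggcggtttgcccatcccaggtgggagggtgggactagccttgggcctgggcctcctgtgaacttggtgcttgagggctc
Nkg7, chr7:43436988-43437137, plus strand: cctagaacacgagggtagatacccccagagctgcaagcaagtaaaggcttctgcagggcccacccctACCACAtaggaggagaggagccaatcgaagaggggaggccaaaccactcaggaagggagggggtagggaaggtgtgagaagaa
Gzma, chr13:113100982-113101131, minus strand: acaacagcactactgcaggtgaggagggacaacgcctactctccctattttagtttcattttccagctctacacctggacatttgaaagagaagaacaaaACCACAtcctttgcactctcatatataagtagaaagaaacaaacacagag
Klrb1c, chr6:128788642-128788791, minus strand: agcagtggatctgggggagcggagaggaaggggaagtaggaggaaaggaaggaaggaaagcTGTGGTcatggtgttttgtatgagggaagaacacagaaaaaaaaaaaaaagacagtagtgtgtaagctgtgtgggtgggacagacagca
The ETS match began 18 bases before the start of Cd3e, on the opposite strand, and on the same strand 11 and 115 bases before the upstream and downstream starts of Lck. The RUNX match began 83 bases before Nkg7 and 50 before Gzma on the opposite strand, and on the same strand 89 before Klrb1c and 58 before the upstream start of Lck. Only the upstream Lck promoter held both. Cd3d, Cd3g and Cd8a held neither within these windows.

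Libraries held 13837445 to 19840917 counted reads. The members together took only 340 to 652 of those reads in 8 libraries, and 55 in LFG 3. Values are given as CPM, read counts brought to a common library size after TMM scaling, which adjusts library totals for differences in composition, unless FPKM is named. The 6 hepatocyte markers listed summed to between 75928 and 164817 CPM, so every library was liver by this check. Replicates are named as separate samples, but the labels do not say that they came from separate mice, so p-values measure the spread between these samples. LFG 3 had the lowest total, and 13924 genes were detected in it. The other LFG libraries had 15100 and 15248, and REG and hADMSCs-Exo libraries had 14539 to 14698. Of the 10 members, 9 had their lowest CPM of the 9 libraries in LFG 3. Results without LFG 3 thus leave out a library singled out in part by the members' own levels. Of all 12760 genes tested, 25.3% had their lowest value in LFG 3. The members' values in each LFG comparison are therefore given with and without that library.

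The plot of the members by library shows these levels gene by gene.

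**Figure D1:**
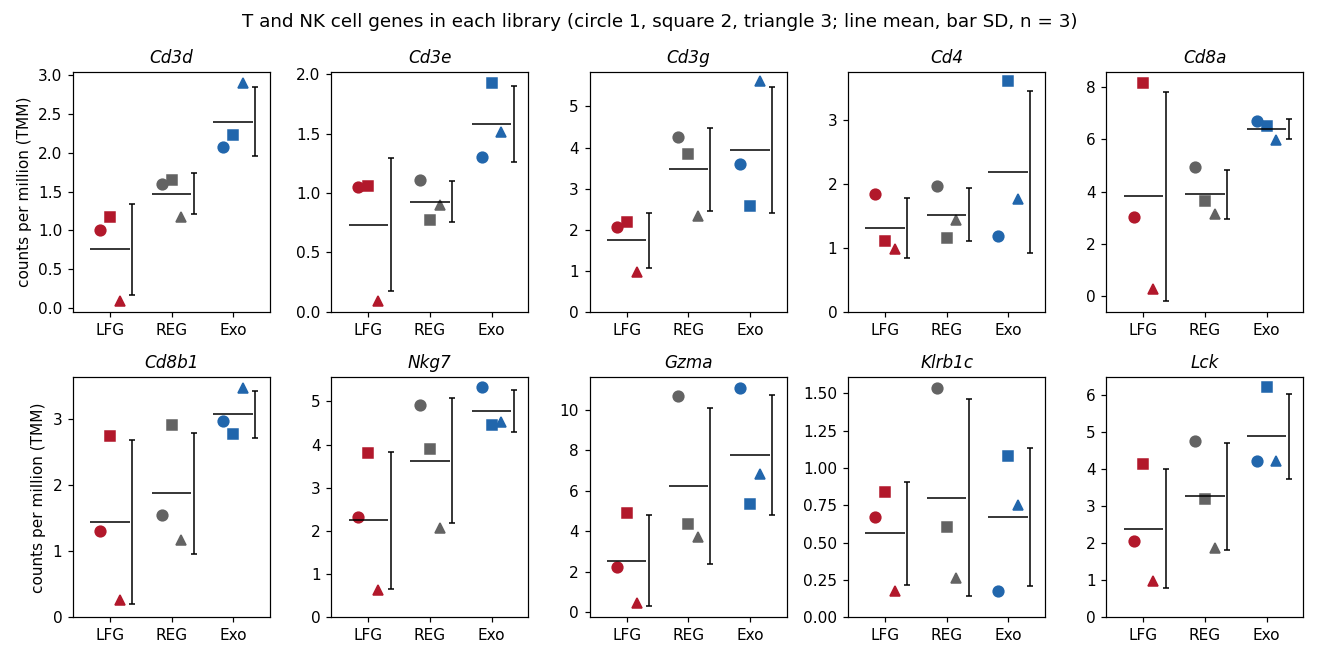
CPM (TMM) of the 10 T and NK cell genes in each library of LFG, REG and hADMSCs-Exo (Exo), 1 panel per gene with its own linear axis. Points are libraries, the line is the mean and the bar beside it the SD of 3 libraries; the triangle of LFG (LFG 3) is the lowest point of 9 panels, and hADMSCs-Exo points lie above all REG points for Cd3d, Cd3e and Cd8a.

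The CD3 chains form the signalling part of the T cell receptor on every T cell. Cd3d, the delta chain, was at 1.01, 1.17 and 0.0894 CPM in LFG 1, 2 and 3, at 1.60, 1.65 and 1.17 in REG, and at 2.07, 2.23 and 2.90 in hADMSCs-Exo. All hADMSCs-Exo libraries were above all REG and LFG libraries, while REG 3 and LFG 2 met at 1.17. The LFG 3 value rests on 1 read, against 21 to 46 reads in the others. Cd3e, the epsilon chain, was at 1.05, 1.06 and 0.0894 CPM in LFG, at 1.11, 0.769 and 0.902 in REG, and at 1.30, 1.93 and 1.51 in hADMSCs-Exo. Again the hADMSCs-Exo libraries were the 3 highest, and LFG 3 held 1 read. Cd3g, the gamma chain, was at 2.06, 2.18 and 0.983 CPM in LFG, at 4.25, 3.84 and 2.34 in REG, and at 3.61, 2.59 and 5.61 in hADMSCs-Exo. For this chain REG and hADMSCs-Exo overlapped, and both lay above every LFG library.

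The co-receptors separate helper from cytotoxic T cells. Cd4, which in mice is carried mainly by helper T cells, was at 1.85, 1.12 and 0.983 CPM in LFG, at 1.97, 1.15 and 1.43 in REG, and at 1.18, 3.61 and 1.76 in hADMSCs-Exo. The 3 groups overlapped, and hADMSCs-Exo 2 alone was above 2 CPM. Cd8a, the alpha chain of CD8, was at 3.03, 8.16 and 0.268 CPM in LFG, at 4.93, 3.63 and 3.13 in REG, and at 6.69, 6.51 and 5.98 in hADMSCs-Exo. The hADMSCs-Exo libraries were close to each other and above all REG libraries, but LFG spanned from the lowest to the highest of the 9. Cd8b1, the beta chain carried by conventional CD8 T cells, was at 1.30, 2.74 and 0.268 CPM in LFG, at 1.54, 2.91 and 1.17 in REG, and at 2.96, 2.77 and 3.46 in hADMSCs-Exo. Its hADMSCs-Exo libraries lay above all LFG libraries, and REG 2 reached into their range.

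Lck, the kinase that phosphorylates the CD3 chains, was at 2.06, 4.13 and 0.983 CPM in LFG, at 4.74, 3.19 and 1.86 in REG, and at 4.20, 6.20 and 4.22 in hADMSCs-Exo. The hADMSCs-Exo libraries were above the LFG libraries, LFG 2 only narrowly, and REG overlapped both.

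Nkg7, Gzma and Klrb1c mark cytotoxic cells. Nkg7, a granule membrane protein shared by NK cells and CD8 T cells, was at 2.31, 3.80 and 0.626 CPM in LFG, at 4.93, 3.90 and 2.07 in REG, and at 5.33, 4.46 and 4.54 in hADMSCs-Exo. Gzma, the serine protease granzyme A of their granules, was at 2.23, 4.92 and 0.447 CPM in LFG, at 10.7, 4.34 and 3.72 in REG, and at 11.1, 5.36 and 6.80 in hADMSCs-Exo. Both genes were higher in every hADMSCs-Exo library than in any LFG library and overlapped with REG, whose replicate 1 was high for both. Klrb1c, which encodes the NK1.1 antigen of C57BL/6 NK cells and NKT cells, was at 0.673, 0.838 and 0.179 CPM in LFG, at 1.54, 0.604 and 0.265 in REG, and at 0.178, 1.08 and 0.756 in hADMSCs-Exo. It rested on 2 to 25 reads per library, overlapped among all groups, and was the only member whose lowest library was not LFG 3.

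Per gene length, in FPKM, the order of the levels in hADMSCs-Exo ran from Gzma at 7.66 ± 3.18 (SD, n = 3) and Nkg7 at 5.18 ± 0.710 to Cd8b1 at 2.04 ± 0.150, Cd8a at 1.74 ± 0.183 and Lck at 1.65 ± 0.424. Cd3d at 1.30 ± 0.169, Cd3g at 1.18 ± 0.404, Cd4 at 0.538 ± 0.321, Cd3e at 0.383 ± 0.0810 and Klrb1c at 0.223 ± 0.154 followed. Of neighbours in this order only Nkg7 and Cd8b1 lay further apart than their summed SDs. REG had the granule genes Gzma (5.94 ± 3.81) and Nkg7 (3.78 ± 1.56) at the top and Cd3e (0.216 ± 0.0458) at the bottom. LFG had the same granule genes at the top (2.91 ± 2.48 and 2.85 ± 2.06), with Cd3e (0.219 ± 0.178) the lowest. Within the CD3 complex, Cd3e was the lowest chain per length in every group.

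The comparison of hADMSCs-Exo with REG asks how the exosomes changed recovery beside PBS alone, both groups being 4 weeks past CCl4. Of the 10 members 9 had a higher estimate in hADMSCs-Exo, but no member passed the test. Among all 12337 genes tested 51.1% were higher. The members' median log2 fold change was 0.55, against 0.0080 over all genes. Cd8a differed most clearly, at 6.39 ± 0.366 CPM against 3.89 ± 0.928 (SD, n = 3 each), a log2 fold change of 0.71 with SE 0.24 and a 95% interval from 0.15 to 1.27. Its unadjusted p was 0.0188 and its adjusted p 0.430 by edgeR's quasi-likelihood test, adjusted after Benjamini and Hochberg.

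The other estimates were 0.77 for Cd3e, 0.71 for Cd8b1, 0.70 for Cd3d, 0.58 for Lck, 0.52 for Cd4, 0.39 for Nkg7, 0.31 for Gzma and 0.18 for Cd3g on the log2 scale. Klrb1c alone was lower, by an estimate of -0.24 with a 95% interval from -2.03 to 1.54. Their intervals all included 0, and their adjusted p in edgeR's quasi-likelihood test ran from 0.511 for Cd3d to 0.936 for Klrb1c. The upper ends of the intervals of Cd3d (1.43), Cd3e (1.60) and Cd8b1 (1.58) allowed more than a doubling, so these data do not show that the genes were alike in both groups. A gene was called where the adjusted p was under 0.05 and the log2 fold change was 1 or more in either direction. By that rule edgeR (quasi-likelihood, Benjamini-Hochberg) called 0 of the 10 members, against 0.00811% of all genes (1 gene). DESeq2 and limma with voom also called 0. At an unadjusted p under 0.05 there was 1 member, against 10.0% of all genes, a share of the members equal to the background. The groups did not overlap, with hADMSCs-Exo higher, for 3 members (Cd3d, Cd3e and Cd8a), against 8.07% of all genes.

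Of the other leukocyte lists in this comparison, neutrophil markers were higher in 4 of 4 genes tested with a median of 0.73, above that of the members, and dendritic cell markers in 5 of 5 (0.41). Pan-leukocyte markers were higher in 5 of 5 (0.26), B cell markers in 4 of 6 (0.19), macrophage markers in 3 of 6 (0.017) and plasma cell markers in 0 of 2 (-0.15). Stellate cell and myofibroblast markers were higher in 0 of 6 (-1.01), with 4 of 6 at an unadjusted p under 0.05 and 0 called, and erythroid (0 of 4, -0.69) and sinusoidal endothelial markers (0 of 5, -0.58) had estimates below 0 as well. The part of these in the T and NK values was not tested. Leaving out 1 library at a time moved the members' median between 0.37 (without REG 3) and 0.77 (without REG 1). Without hADMSCs-Exo 2 the estimate of Cd4 was -0.046, and without hADMSCs-Exo 1 that of Gzma was -0.042, so the direction of each turned with 1 library. That of Cd3g turned without REG 3 (-0.046) and without hADMSCs-Exo 3 (-0.17), and that of Klrb1c without REG 1 (0.64) and without hADMSCs-Exo 1 (0.21). Lck came to 0.29 without REG 3 and 0.96 without REG 1, Nkg7 to 0.11 and 0.69 without these libraries, and Cd8b1 to 0.46 without REG 3 and 1.16 without REG 2. The estimates of Cd3d (0.54 to 0.80), Cd3e (0.60 to 0.92) and Cd8a (0.57 to 0.93) moved by less than 1.5 times when any 1 library was left out. Gzma was also at 0.040 without REG 3, at 0.094 without REG 2 and at 0.95 without REG 1.

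**Figure D2:**
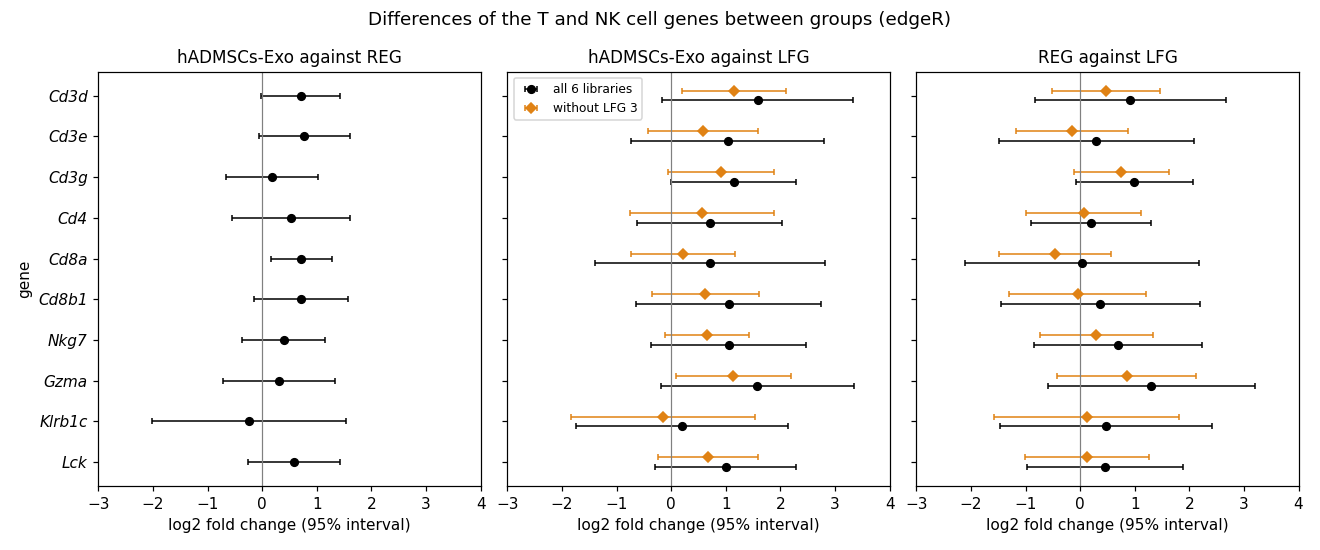
Log2 fold changes of the 10 T and NK cell genes with 95% intervals from edgeR for hADMSCs-Exo against REG, hADMSCs-Exo against LFG and REG against LFG; circles use all 6 libraries and diamonds leave out LFG 3. Only Cd8a against REG, and Cd3d and Gzma against LFG without LFG 3, have intervals that lie above 0, and none of these passed the adjusted test.

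The comparison of hADMSCs-Exo with LFG spans CCl4 withdrawal, 4 weeks and the exosomes together. All 10 members had a higher estimate in hADMSCs-Exo, against 43.1% of all 12489 genes tested, with a median of 1.04 against -0.059 over all genes. Cd3d was at 2.40 ± 0.439 CPM against 0.758 ± 0.584 (SD, n = 3 each), a log2 fold change of 1.59 with SE 0.74. Gzma was at 7.74 ± 2.97 CPM against 2.53 ± 2.25, a log2 fold change of 1.58 with SE 0.75. The estimates of Cd3g (1.14), Nkg7 (1.05), Cd8b1 (1.05), Cd3e (1.03) and Lck (1.00) were all near 1, and those of Cd8a (0.71), Cd4 (0.70) and Klrb1c (0.19) were lower. Single libraries moved several of these by more than 1.5 times. Cd8a came to 1.88 without LFG 2 and to 0.22 without LFG 3, and was at 1.39 with a block for replicate number. Cd4 fell to 0.15 without hADMSCs-Exo 2 and Klrb1c to -0.31. Without LFG 2 the estimates of Cd8b1, Nkg7, Lck and Gzma were 1.87, 1.64, 1.64 and 2.46, and without LFG 3 they were 0.63, 0.66, 0.67 and 1.14. Leaving out LFG 3 also brought Cd3e to 0.59, Cd3g to 0.91 and Cd4 to 0.56.

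None of these estimates passed: 0 of 10 members were called by edgeR (quasi-likelihood, Benjamini-Hochberg), as were 0% of all genes, and the members' adjusted p ran from 0.805 to 0.977. DESeq2 and limma with voom called 0 as well, and under voom the members' median was 0.59 and Klrb1c was at -0.35. At an unadjusted p under 0.05 there were 0 members, against 5.98% of all genes. The groups did not overlap, with hADMSCs-Exo higher, for 7 members, against 6.35% of all genes. Those 7 were the 3 CD3 chains, Cd8b1, Nkg7, Gzma and Lck. The sample titles tie same-numbered libraries to no shared mouse or batch. A block for replicate number therefore rests only on the correlated deviations of these libraries. It gave a median of 1.31 and 1 member at an unadjusted p under 0.05, Lck, against 5.72% of all genes, with 0 called, against 0% of all genes.

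Neutrophil markers were higher in 4 of 4 genes tested in this comparison (median 1.70) and B cell markers in 6 of 6 (median 1.22), both above the members' median. Plasma cell markers were higher in 2 of 2 (0.83), dendritic cell markers in 3 of 5 (0.17), macrophage markers in 3 of 6 (-0.15) and pan-leukocyte markers in 2 of 5 (-0.48). Without LFG 3 the first 3 of these lists had medians of 1.64, 1.29 and 0.76, while dendritic cell (2 of 6, -0.33), macrophage (1 of 6, -0.64) and pan-leukocyte markers (1 of 5, -0.96) had mostly estimates below 0, and edgeR called 2 neutrophil markers up, 1 macrophage marker down and 1 pan-leukocyte marker down. Stellate cell and myofibroblast markers were higher in 0 of 6 with LFG 3 (-1.43, 0 called) and without it (-1.88, 4 called down). Cholangiocyte markers were higher in 0 of 5 with LFG 3 (-0.89, 0 called) and without it (-1.37, 1 called down). Hepatocyte markers were higher in 3 of 6 with LFG 3 (-0.028) and in 6 of 6 without it (0.49, 2 called up). Erythroid markers were higher in 4 of 4 either way (0.85 and 0.53), and sinusoidal endothelial markers in 3 of 5 (0.018) and 1 of 5 (-0.34). The part of these in the values above was not tested. Without LFG 3 the members' median was 0.64 and 9 of 10 estimates stayed above 0, Klrb1c being at -0.15. Cd3d was then 1.15 (SE 0.41, unadjusted p = 0.0241, adjusted p = 0.121) and Gzma 1.14 (SE 0.45, unadjusted p = 0.0371, adjusted p = 0.150) in edgeR's quasi-likelihood test. These 2 of 10 members at an unadjusted p under 0.05 stand against 28.5% of all genes. Cd8a was at 0.22, LFG 2 holding its highest level. Again 0 of 10 members were called, now against 5.97% of all genes (773 of 12955). The same count of 7 members did not overlap, but without LFG 3 that held for 23.2% of all genes. Without LFG 2 the median was 1.64, so both of these LFG libraries moved it by more than 1.5 times.

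The comparison of REG with LFG follows recovery under PBS, and it shares the LFG libraries with the comparison above. All 10 estimates were higher in REG, against 44.1% of all 12517 genes tested, with a median of 0.46 against -0.068 over all genes. Gzma (1.30), Cd3g (0.99), Cd3d (0.92) and Nkg7 (0.69) had the highest estimates, and Cd8a was at 0.036. Cd3g was the only member whose groups did not overlap, with 3.48 ± 1.01 CPM in REG against 1.74 ± 0.659 in LFG (SD, n = 3 each). Its unadjusted p was 0.0646 and its adjusted p 0.465 in edgeR's quasi-likelihood test. That is 1 of 10 members, against 8.91% of all genes.

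In this comparison 0 of 10 members were called by edgeR (quasi-likelihood, Benjamini-Hochberg), as were 0% of all genes, and DESeq2 and limma with voom called 0. Under voom the members' median fell by more than 1.5 times. Cd3e (-0.18), Cd8a (-0.61), Klrb1c (-0.31), Cd8b1 and Lck were then lower in REG. At an unadjusted p under 0.05 there were 0 members, against 11.3% of all genes. Without LFG 3 the median was 0.12 and 7 of 10 estimates were above 0, with Cd8a at -0.47, Cd3e at -0.15 and Cd8b1 at -0.049. Gzma was then at 0.85, Cd3g at 0.76, Cd3d at 0.48, Nkg7 at 0.30, Lck at 0.12, Klrb1c at 0.12 and Cd4 at 0.061. No member was called then either, against 10.7% of all genes (1391 of 12948). At an unadjusted p under 0.05 there were 0 members, against 37.3% of all genes, and Cd3g remained 1 member without overlap, against 25.8%. The median also moved by more than 1.5 times without LFG 2 (1.18) and without REG 3 (0.84). With library totals alone the median of all genes moved from -0.068 to -0.27, and with it Cd3e, Cd4 and Cd8a came to -0.033, -0.078 and -0.26, none of them below that median. Neutrophil markers (4 of 4 genes tested higher, median 0.98), plasma cell markers (2 of 2, 1.01), B cell markers (4 of 5, 0.74), sinusoidal endothelial markers (4 of 5, 0.70) and erythroid markers (4 of 4, 1.34) were further above 0 than the members in this comparison. Pan-leukocyte (2 of 5, -0.51), macrophage (2 of 6, -0.27) and dendritic cell markers (2 of 5, -0.13) were not. Without LFG 3 the medians of the first 5 lists were 0.93, 0.95, 0.67, 0.61 and 1.31. The last 3 lists were then at 0 of 5 (-0.99), 1 of 6 (-0.78) and 1 of 6 (-0.92), with 1 pan-leukocyte and 1 dendritic cell marker called down by edgeR, and 1 erythroid marker was called up. Cholangiocyte markers were higher in 1 of 5 with LFG 3 (-0.75, 0 called) and without it (-1.19, 3 called down), and stellate cell and myofibroblast markers in 0 of 6 (-0.47, 0 called) and 0 of 6 (-0.92, 1 called down). Hepatocyte markers were higher in 2 of 6 with LFG 3 (-0.026) and in 5 of 6 without it (0.84, 1 called up). The part of these lists in the members' values was not tested.

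The members' SD of log2 CPM had a median of 1.34 in LFG, 0.53 in REG and 0.29 in hADMSCs-Exo. The LFG value rests on LFG 3, the median being 0.48 over LFG 1 and LFG 2 alone. Cd8a was the extreme in both directions, with an SD of 2.26 in LFG and of 0.082 in hADMSCs-Exo. Set against counting error, the chi-square per degree of freedom exceeded 1 for 10 members in LFG, 8 in REG and 8 in hADMSCs-Exo. Counting error alone gives 1 on average, so a value somewhat above 1 does not show a spread beyond it. Such values were those of Cd3e (1.16), Cd8a (1.17) and Nkg7 (1.48) in hADMSCs-Exo and of Cd4 (2.37) in REG. Cd8b1 (0.27) and Cd3d (0.67) in hADMSCs-Exo and Cd3e (0.72) and Cd3d (0.86) in REG varied no more than their read counts alone would give.

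The sum of all 10 members gives 1 level per library with less counting error. It was 17.6, 30.1 and 4.92 CPM in LFG, 37.3, 26.0 and 18.0 in REG, and 38.6, 36.7 and 37.5 in hADMSCs-Exo. After TMM scaling the hADMSCs-Exo libraries lay within 2 CPM of each other. The 95% counting interval of REG 1 (34.3 to 40.4) covered all of them. With library totals alone the hADMSCs-Exo sums were 39.6, 37.1 and 35.1 CPM, so they lay further apart. LFG 1 was then at 24.2 CPM, above REG 2 and above REG 3 (17.1), while its scaled sum was below every REG library. The order of LFG 1 and REG thus depends on the scaling. LFG 3, with an interval from 3.70 to 6.40, was below every other library. Intervals cover counting error only.

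LFG 3 was low in more than T and NK genes. The mean of LFG 1 and LFG 2 exceeded LFG 3 by a factor of 20.9 for Cd8a, 12.2 for Cd3d, 11.8 for Cd3e, 7.99 for Gzma, 7.54 for Cd8b1 and 4.88 for Nkg7, and by 1.51 for Cd4. For 8 members the upper 95% counting limit of LFG 3 was below the lowest other library, Cd4 and Klrb1c being the exceptions. The lists of pan-leukocyte (5 of 5), macrophage (6 of 6) and dendritic cell (5 of 5) markers tested had their lowest values in LFG 3 in every gene, and 4 of 6 stellate cell and myofibroblast markers did. Of the other leukocyte lists, B cell markers did so in 2 of 6 genes, neutrophil markers in 1 of 4 and plasma cell markers in 0 of 2. Hepatocyte markers did so in 0 of 6, with a median log2 difference of LFG 1 and 2 over LFG 3 of -1.38. Which of these differences bears on the T and NK genes of LFG 3 was not tested.

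**Figure D3:**
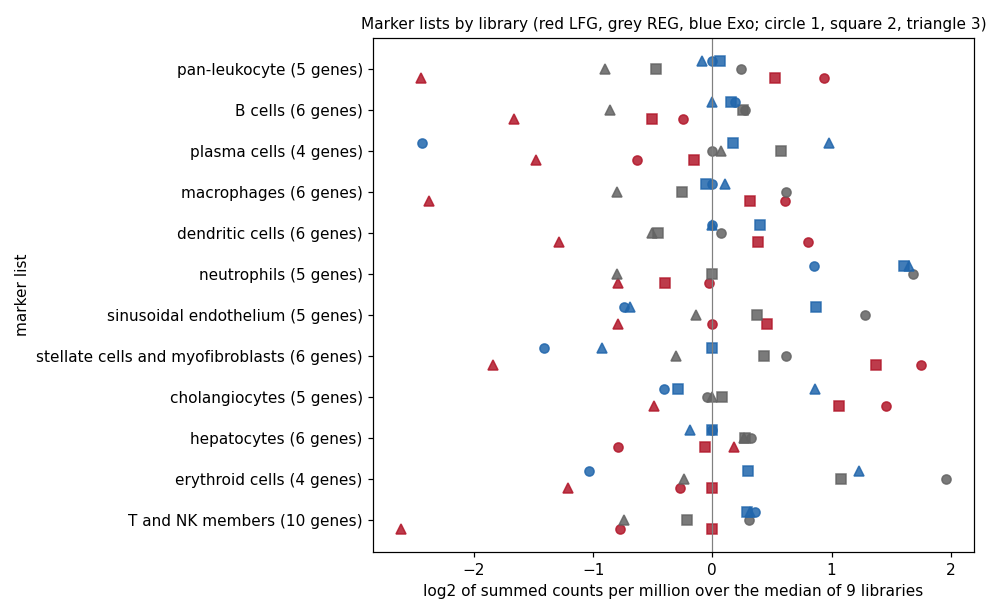
Summed CPM of each marker list in each library, as log2 of its ratio to the median of the 9 libraries; colours are groups and shapes are replicates, as the title gives them. LFG 3 (red triangle) is the lowest point of every list except plasma cells, neutrophils and hepatocytes, and for hepatocytes it is above LFG 1 and LFG 2.

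LFG 1 and LFG 2 had the highest pan-leukocyte sums of the 9 libraries, but not the highest T and NK sums. The summed pan-leukocyte markers were at 261, 196 and 25.1 CPM in LFG, at 161, 98.5 and 73.2 in REG, and at 137, 143 and 128 in hADMSCs-Exo. The reads of the 10 members per pan-leukocyte read were 0.0674, 0.153 and 0.196 in LFG, 0.232, 0.264 and 0.247 in REG, and 0.283, 0.257 and 0.293 in hADMSCs-Exo. Every LFG library, LFG 3 included, was below every REG and hADMSCs-Exo library on this ratio, which does not depend on the scaling of libraries. REG and hADMSCs-Exo overlapped, at REG 2 and hADMSCs-Exo 2. The order depends on which markers are summed. Laptm5 and Ptprc gave 2665 and 1347 of the 6198 pan-leukocyte reads of LFG 1. For Coro1a alone, LFG 2 had 539 member reads on 362 reads, and REG 2 had 473 on 416, so LFG 2 was above REG 2. Per macrophage marker read the ratios were 0.0162, 0.0340 and 0.0359 in LFG, 0.0342, 0.0436 and 0.0441 in REG, and 0.0541, 0.0534 and 0.0489 in hADMSCs-Exo. On this second ratio the hADMSCs-Exo libraries were the 3 highest of 9. Both ratios were chosen after the values were seen and are given with no test.

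**Figure D4:**
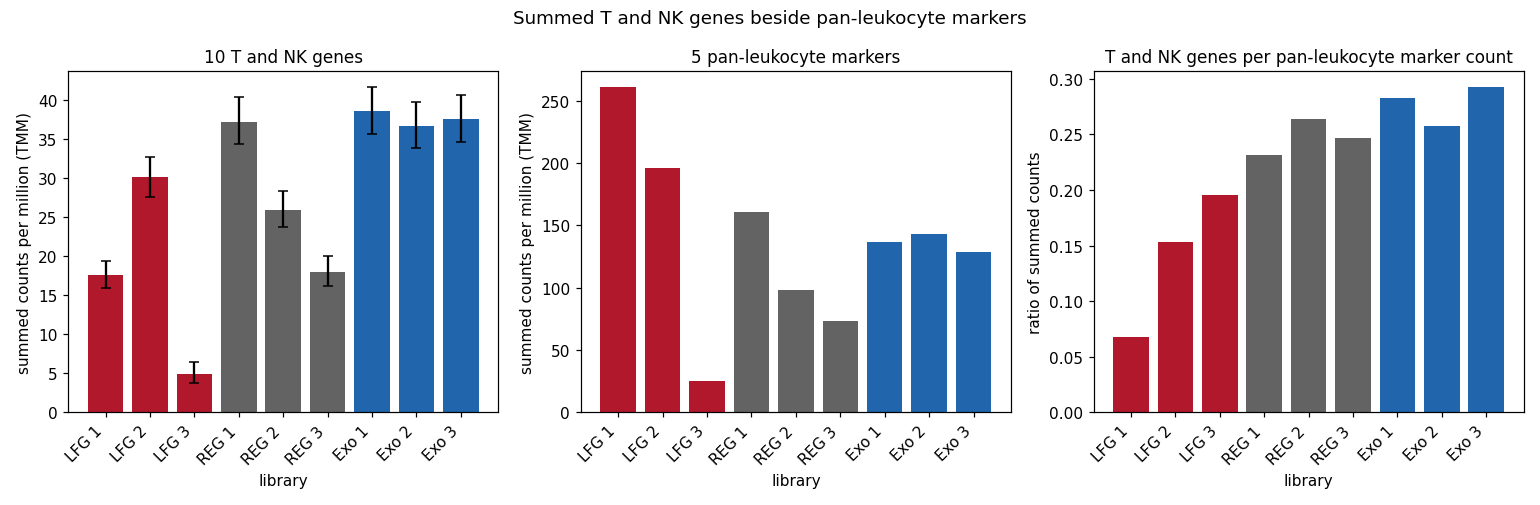
Summed CPM of the 10 T and NK genes with 95% counting intervals (left), summed CPM of 5 pan-leukocyte markers (middle) and the ratio of their summed reads (right) in each of 9 libraries; bars start at 0 and colours are groups. For the sum of these 5 markers the ratio is 0.0674 to 0.196 in LFG, below the 0.232 to 0.293 of the other 6 libraries. Coro1a alone does not keep this order.

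The balance between members within a library is free of scaling as well. The ratio of Cd8a to Cd4 in FPKM was 1.81, 8.09 and 0.302 in LFG, 2.77, 3.48 and 2.42 in REG, and 6.26, 2.0 and 3.76 in hADMSCs-Exo. The 95% counting intervals of LFG 1 (1.23 to 2.70) and LFG 2 (5.05 to 13.6) did not meet, so libraries of 1 group differed beyond counting error. In hADMSCs-Exo the same held for replicate 1 (3.87 to 10.6) and replicate 2 (1.44 to 2.78). The log2 ratio was higher in hADMSCs-Exo than in REG by 0.34, with p = 0.600 in a two-sided exact permutation test, whose smallest possible p with 3 against 3 libraries is 0.1.

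Cd8a to Cd8b1, the chains of 1 co-receptor, ran from 0.508 to 1.30 in the 8 libraries other than LFG 3, where 3 reads of each give 0.408. The 95% counting intervals of REG 1 (0.824 to 2.13) and REG 2 (0.348 to 0.743) did not meet, so this ratio also differed within 1 group beyond counting error. The ratio of Gzma to Nkg7 was 0.876, 1.18 and 0.649 in LFG, 1.96, 1.01 and 1.63 in REG, and 1.89, 1.09 and 1.36 in hADMSCs-Exo. Replicate 1 of REG and of hADMSCs-Exo had the highest ratios, and each gene had its highest CPM of the group there. The log2 differences against LFG were 0.76 for REG and 0.69 for hADMSCs-Exo, each with p = 0.200 in the two-sided exact permutation test. Cd3d to Cd3e, chains of the same complex, was at 2.16, 2.48 and 2.25 in LFG, 3.25, 4.82 and 2.91 in REG, and 3.58, 2.6 and 4.31 in hADMSCs-Exo. Every LFG library was below every other library on this ratio, by log2 differences of 0.64 for REG and 0.58 for hADMSCs-Exo, each at p = 0.1 in the two-sided exact permutation test, the smallest it can give here. LFG 3 held 1 read of each gene, and the counting intervals of LFG 2 (1.27 to 4.89) and hADMSCs-Exo 2 (1.58 to 4.31) overlapped. Over the 15 tests of 5 ratios in 3 comparisons the smallest Benjamini-Hochberg adjusted p was 0.750.

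**Figure D5:**
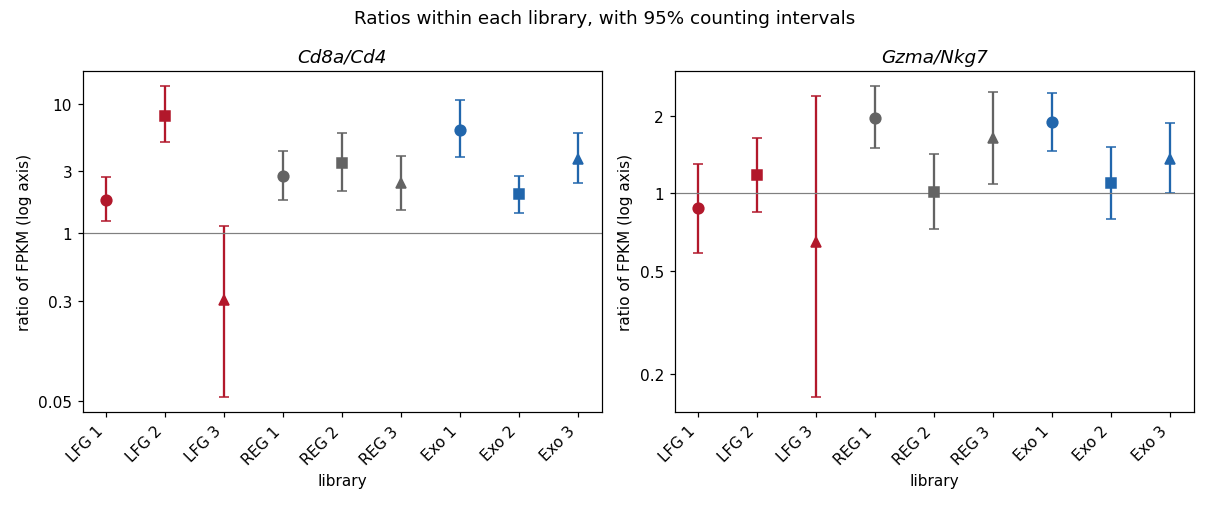
Ratios of FPKM of Cd8a to Cd4 (left) and Gzma to Nkg7 (right) in each library on log axes, with 95% counting intervals; colours are groups and shapes are replicates. Cd8a to Cd4 runs from 0.302 in LFG 3 to 8.09 in LFG 2, wider within LFG than between the means of the groups.

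Of 72 further T and NK genes listed from general knowledge, 68 were found in the table, Trac, Trbc1, Trbc2 and Trdc not being analysed here. These 68 summed to 258 CPM in LFG 3, where the 10 members summed to 4.92. The mean of LFG 1 and LFG 2 exceeded LFG 3 by a factor of 1.18 for their sum and of 4.85 for the members. By gene, 38 of 54 tested over 9 libraries were lowest in LFG 3. Which cells gave the reads of this list was not tested. Ptprcap was listed at 0 in every library. In hADMSCs-Exo against REG 42 of 49 tested were higher, against 51.1% of all genes. Their median log2 fold change was 0.42, against 0.0080 over all genes, and 0 were called by edgeR's quasi-likelihood test. An unadjusted p under 0.05 was found for 5 of them, all higher, against 10.0% of all genes. The 3 with the smallest p were Lag3, S1pr1 and Il7r. Lag3, an inhibitory receptor of activated T and NK cells, was at 0.493, 1.26 and 1.11 CPM in REG and at 3.91, 1.81 and 4.16 in hADMSCs-Exo, a log2 fold change of 1.77 (SE 0.46, adjusted p = 0.394, edgeR). S1pr1, the receptor by which lymphocytes leave tissue and which endothelium also carries, was at 33.7, 38.3 and 45.6 against 57.1, 50.5 and 52.8 CPM, a log2 fold change of 0.45. Il7r, the receptor for interleukin 7, differed by 1.06, with an adjusted p of 0.479 in edgeR's test. It was at 1.23, 1.21 and 1.33 CPM in REG and at 1.24, 3.61 and 3.02 in hADMSCs-Exo, so the groups overlapped. LFG 1, at 3.96, was above every hADMSCs-Exo library. Both Lag3 and S1pr1 were higher in every hADMSCs-Exo library than in any REG library.

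In hADMSCs-Exo against LFG 46 of 52 were higher, against 43.1% of all genes, with a median of 0.54. By edgeR's quasi-likelihood test 0 were called, and 3 had an unadjusted p under 0.05 (S1pr1, Icos and Ccl5), a share near the 5.98% of all genes. Without LFG 3 the median was 0.19, with 40 of 55 higher, and over the 52 genes above it was 0.23, with 39 higher. Ccl5, a chemokine that T and NK cells secrete, was at 5.13, 11.3 and 1.25 CPM in LFG and at 17.5, 19.0 and 20.2 in hADMSCs-Exo, and the groups did not overlap. In REG against LFG 30 of 47 were higher, against 44.1% of all genes, with a median of 0.19. Of these genes 0 were called, as were 0% of all genes, and 0 had an unadjusted p under 0.05, against 11.3% of all genes. Zbtb16, S1pr1 and Icos had the smallest p. Zbtb16 was at 33.4, 56.5 and 22.1 CPM in LFG and at 5.36, 1.81 and 22.0 in REG. Without LFG 3 more genes passed the filter, and 23 of 53 were higher with a median of -0.077. Over the 47 genes tested with all libraries, 21 were then higher with a median of -0.073, a restriction chosen after the data were seen.

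Without LFG 3 edgeR called 2 of 53 further genes in REG against LFG, against 10.7% of all genes, and 3 of 55 in hADMSCs-Exo against LFG, against 5.97%, so neither share was above the background. They were Zap70, Havcr2 and, in the comparison with hADMSCs-Exo, S1pr1. Zap70, the kinase that follows Lck, was at 5.01, 5.81 and 13.9 CPM in LFG, at 11.5, 17.5 and 13.0 in REG and at 11.7, 11.9 and 15.0 in hADMSCs-Exo. It rose from LFG 1 and 2 to REG by 1.42 (adjusted p = 0.0178) and to hADMSCs-Exo by 1.27 (adjusted p = 0.0284, edgeR for both). In LFG 3 it was higher than in LFG 1 and 2, the opposite of Lck and the CD3 chains. Havcr2, an inhibitory receptor that myeloid cells carry too, was at 4.21, 4.47 and 0 CPM in LFG and between 0.743 and 1.89 in the other 6 libraries. It fell without LFG 3, by 1.90 to REG and by 1.63 to hADMSCs-Exo (adjusted p = 0.0252 and 0.0480, edgeR). S1pr1 rose by 1.01 to hADMSCs-Exo (adjusted p = 0.0249, edgeR) without LFG 3.

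The members varied together mainly through LFG 3. Over the 45 pairs of members, Pearson's r of log2 CPM had a median of 0.85 over 9 libraries and of 0.49 over the 8 without LFG 3. The closest pair was Nkg7 and Gzma (0.96) over 9 libraries and Nkg7 and Lck (0.90) over 8. Of 12750 genes, those most like the members' mean over 9 libraries were H2-DMa, which helps load peptides on MHC class II, at r = 0.98, Hcst, the DAP10 adaptor of NK receptors, at 0.97, Arl5c at 0.97, Ccl5 at 0.97 and Baiap3 at 0.97. Without LFG 3 they were Timd4, a receptor of resident macrophages (0.96), Rcan2 (0.96), Cxcl13, a chemokine that attracts B cells (0.95), Retnlg (0.94) and Stk32c (0.94). No gene was on both lists. These are descriptions over libraries that share groups and composition.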

How the data were processed

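Total RNA of mouse liver (3 µg input) had been sequenced on an Illumina NovaSeq platform. The authors deposited read counts per gene, without normalization, for 9 libraries, and beside them FPKM, in which each count is divided by gene length and by its library's total. The submitters' processing notes name cutadapt 1.15, HISAT2 2.0.5, HTSeq 0.9.1 and DESeq 1.30.0 with GRCm38, and no roles or settings beyond that. Reads that fall on relatives of a gene or on overlapping genes may have been lost or shared. Columns headed MSC_E were read as the exosome samples (titled Exo), an inference from the heading; no column was read as the samples titled MSC. Depth was 13837445 to 19840917 counts per library, at which the chi-square against counting error was above its average for most members in each group.

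The counts went into edgeR 4.0.16 under R 4.3.3 (TMM, edgeR's filter on low counts, quasi-likelihood test, two-sided, Benjamini-Hochberg adjustment over all genes) in the 6 libraries of each comparison. A gene was called if its adjusted p was under 0.05 and its log2 fold change 1 or more in size. Log2 CPM had a prior count of 2. The fit was also run on simulated counts, whose outcome is not given here. Alternatives were RLE size factors, library totals alone (added after the data were seen), other filters, a replicate block, all libraries in 1 fit, DESeq2 1.42.0, limma 3.58.1 with voom and quality weights, other thresholds and each library left out. FPKM served for levels between genes and ratios. Ratios were tested with scipy 1.17.1 by exact permutation.

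All 10 members are named, then companion genes that were called, otherwise up to 3 per comparison with the smallest p, and the 5 genes most like the members. Members and lists were chosen with earlier results of these data known. Replicates differed by more than sampling noise (chi-square per gene at least 23.4). Deviations of same-numbered libraries correlated by 0.101, 0.308 and 0.180 for hADMSCs-Exo and LFG, all over 0.1, so the replicate block is given beside that comparison, whose values are otherwise from the fit without it. They correlated by 0.159, 0.00938 and 0.0336 for hADMSCs-Exo and REG, and by 0.415, -0.202 and 0.305 for REG and LFG.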

Additional observations from a re-analysis of the deposited data

How the results depend on the processing

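No member was called under any fit. Of the members' alternatives, 132 of 139 kept their direction for hADMSCs-Exo against REG, 129 of 133 for hADMSCs-Exo against LFG and 118 of 133 for REG against LFG, with smallest adjusted p of 0.243, 0.121 and 0.136. With an unadjusted p and no limit on fold change, 1 member and 5 companion genes passed against REG, and 3 companion genes in hADMSCs-Exo against LFG. Under limma with voom, Klrb1c turned to 0.012 in hADMSCs-Exo against REG and to -0.35 against LFG, and in REG against LFG Cd3e turned to -0.18, Cd8a to -0.61, Cd8b1 to -0.037, Klrb1c to -0.31 and Lck to -0.12. With library totals alone, Klrb1c came to -0.015 in hADMSCs-Exo against LFG, and Cd3e to -0.033, Cd4 to -0.078 and Cd8a to -0.26 in REG against LFG, while the medians of all genes moved to -0.18 and -0.27. The cause of the turns under voom was not tested. When single libraries were left out, estimates in hADMSCs-Exo against REG ranged from -0.17 to 0.41 for Cd3g, -0.046 to 0.82 for Cd4, -0.042 to 0.95 for Gzma and -0.77 to 0.64 for Klrb1c. Klrb1c ranged from -0.31 to 0.68 in hADMSCs-Exo against LFG. In REG against LFG the ranges were -0.15 to 0.63 for Cd3e, -0.47 to 1.20 for Cd8a, -0.066 to 1.19 for Cd8b1 and -0.36 to 0.92 for Klrb1c. Companion genes called ranged from 0 to 3 in hADMSCs-Exo against LFG and from 0 to 2 in REG against LFG, the highest counts being without LFG 3. With the replicate block the members' medians were 0.55, 1.31 and 0.69 in hADMSCs-Exo against REG, hADMSCs-Exo against LFG and REG against LFG, and 0 members were called, so the block changed no call. The members' median moved by over 1.5 times under voom, from 0.46 to 0.036 in REG against LFG and from 1.04 to 0.59 in hADMSCs-Exo against LFG, and with library totals alone to 0.19 in REG against LFG. Counts of 2 to 25 reads limit what these libraries can show for Klrb1c.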
